A study of Sus scrofa domesticus with 150 samples.

Results

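Complement is a set of plasma and cell surface proteins that cleave each other in sequence. The classical and lectin routes start from C1 or the lectins and run through C2, the alternative route amplifies itself through factor B and factor D, and all of them cleave C3. Fragments of C3 and C5 mark surfaces and call in myeloid cells, and the late components, C7 among them, assemble into a pore in membranes. Most of these proteins circulate from the liver, but macrophages, fibroblasts, endothelial cells and adipocytes are known to make several of them in tissue.

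The mRNA levels of 9 complement genes were followed through the healing of skin wounds in the pig. The genes were the initiating proteases C1R and C1S, the C1 inhibitor SERPING1, C2, the alternative pathway proteases CFB and CFD, the central component C3, the terminal component C7 and the C5a receptor C5AR1. They were found by gene symbol in a count table of 30461 genes, 26905 of them with counts in any sample. A row was found for 8 of the 9 symbols, and C1S had none. C3 had 2 rows, so that 9 rows of the 30461 matched. The second C3 row is named only through a protein match, held at most 26 counts in a sample and had counts in 59 of the 150 samples. It passed the filter on low counts when all samples were fitted together (higher than day 0 skin in 4 of 28 states) but on none of the days fitted alone, and it is left out of the counts of members that follow. The other 8 rows passed the filter in every fit.

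The samples came from 6 female Yorkshire-mix domestic pigs with full-thickness circular excision wounds on the back, which were dressed and otherwise untreated. Day 0 skin (n = 6) is the tissue excised at wounding, 1 sample per animal. After day 0, a biopsy of the wound edge and a biopsy of the wound center were taken from each of 72 wounds on 14 days, and each wound was sampled on 1 day only. Animals 1, 2 and 3 gave the samples of days 1, 3, 5, 7, 11, 15 and 21, and animals 4, 5 and 6 those of days 2, 4, 6, 9, 13, 16 and 19, with 6 samples per location (2 wounds per animal) up to day 13 and 3 on the last 4 days. Except for days 16 and 19, neighbouring days therefore come from different animals, and a change between such days cannot be told apart from a difference between the 2 sets of animals. Whole biopsies were sequenced, so fewer cells of a type and less RNA per cell cannot be told apart either. The 2 wounds of an animal were counted as separate samples, and so were the edge and center biopsies of a wound where no block is named. The p-values thus measure a spread between samples that mixes wounds and animals. In day 0 skin, with 1 sample per animal, it is the spread between animals.

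Total counts ranged from 13133379 to 24895572 per sample. The marker lists went with the labels on most days: the summed level of 9 keratinocyte genes lay between 36197 and 55509 CPM (read counts scaled to the same library total) in the 6 edge samples of day 1 and between 126 and 18547 CPM in the 6 center samples. On day 3 they did not. The center sample of wound 4 held 26783 CPM of keratinocyte genes, the edge sample of wound 6 held 45.8 CPM, and the edge and center libraries of these 2 wounds were the 2 closest pairs among all libraries. With them, no gene at all passed the threshold between edge and center on day 3 by edgeR (0 of 14581, 1667 at an unadjusted p below 0.05), and without them 1349 genes were higher at the edge and 228 in the center. Day 3 results are therefore given with and without these wounds where a call changed. Against day 0 skin, the only member call of day 3 lost without them was that of C7 at the edge. Late in healing, with 3 samples per location, few or none of the keratinocyte genes passed between the locations. Of the 9 keratinocyte genes, 2 passed between edge and center on day 15, 1 on day 16 and 0 on days 19 and 21. Their sums did not overlap on day 15 (525 to 10015 CPM in the center, 31512 to 49517 CPM at the edge). On day 21 they were 38323 to 44868 CPM in the center and 29943 to 58095 CPM at the edge. Endothelial sums (751 to 875 against 566 to 635 CPM) and macrophage sums (432 to 857 against 358 to 422 CPM) were still higher in the center on day 21. Those of the fibroblast, adipocyte, neutrophil, skeletal muscle and T and NK cell lists overlapped between the locations on that day.

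Levels are given as log2(1 + CPM) unless another scale is named, and fold changes are log2 values from edgeR's quasi-likelihood test with their standard error and an adjusted p (Benjamini-Hochberg, over all genes tested in that comparison). A gene is said to be higher or lower only where this adjusted p is below 0.05.

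**Figure D1:**
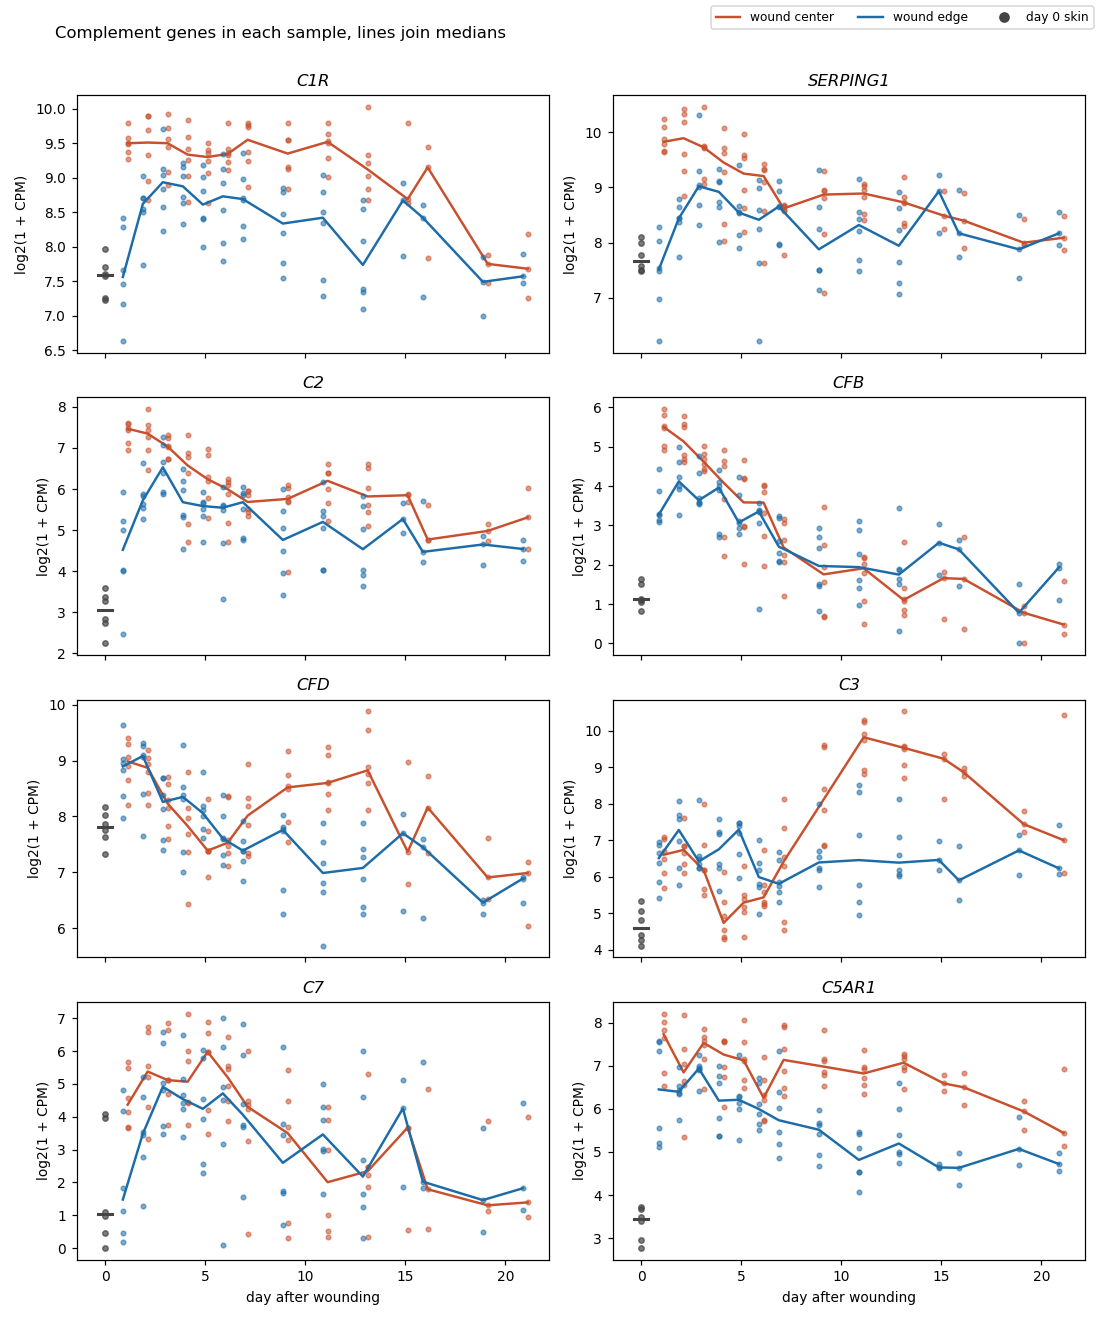
Level of each complement gene in every sample, as log2(1 + CPM), against the day after wounding. Points are samples, lines join the medians of the wound center (red) and the wound edge (blue), and grey marks day 0 skin with its median as a bar; C3 in the center reaches its highest median on day 11 (9.82), while CFB falls from 5.51 on day 1.

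The genes differed widely in abundance. By FPKM, a scale that allows for gene length, the median over all 150 samples was highest for CFD (217) and SERPING1 (191). C1R followed with 62.0, C3 with 15.9, C2 with 14.2 and C5AR1 with 10.5, and C7 (2.65) and CFB (1.15) were lowest. In day 0 skin the order at the top was the same, with CFD at a median of 205 and C3 at 4.63 FPKM. In the center of day 11, C3 reached a median of 168 FPKM (87.9 to 241), below CFD and SERPING1, and its range overlapped that of C1R (75.4 to 126). In the center of day 1 it stood at 15.3, below C2 with 44.6 and C5AR1 with 23.3.

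Against day 0 skin, complement genes were mostly higher in the wound. Of the 224 pairs of a gene and a wound state (8 genes, 14 days, 2 locations), 150 were higher, 1 was lower and 73 did not pass the test. Over all genes, 24.1% of such pairs were higher and 21.0% lower. In the center 80 of 112 pairs were higher (28.2% over all genes) and at the edge 70 of 112 (19.9%). C2 and C5AR1 were higher in all 28 states, C3 in 25, C1R in 21, CFB in 18, SERPING1 in 15, C7 in 8 and CFD in 7. All 28 comparisons share the same 6 day 0 samples, so they are not independent of each other. On day 1, 7 of 8 genes were higher in the center (29.7% of all genes) and 5 of 8 at the edge (21.7%). On day 2 all 8 were higher in the center (33.3% of all genes), with a median log2 fold change of 2.60 over the 8. With the animal as a block in the fit, CFD did not pass there (adjusted p = 0.131).

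**Figure D2:**
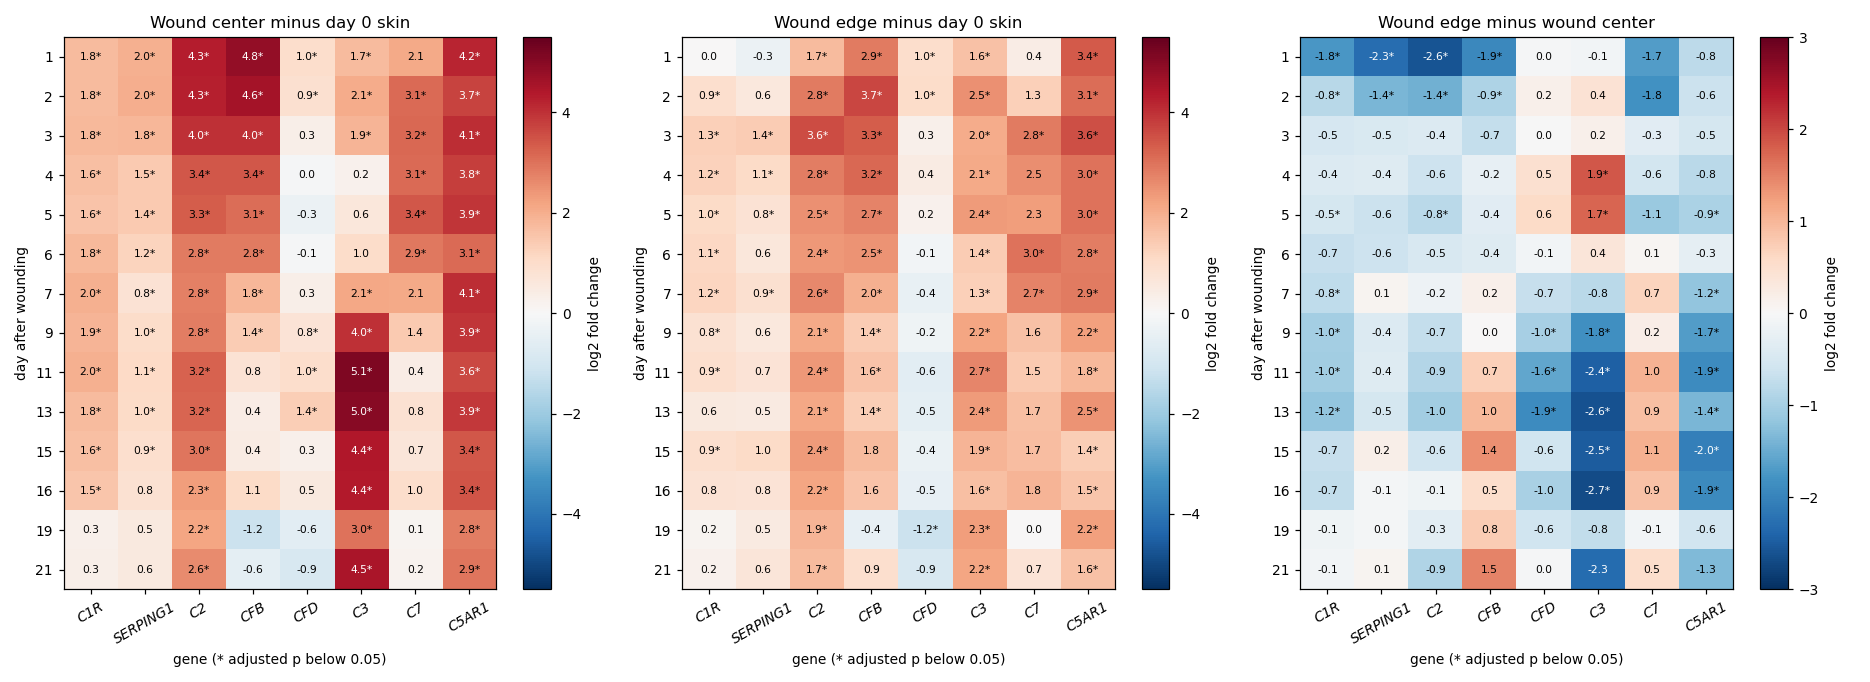
Fitted log2 fold changes of the 8 genes (columns) on each day (rows), for the wound center and the wound edge against day 0 skin and for the edge against the center; an asterisk marks an adjusted p below 0.05, and the color scale of the third panel is narrower. C2 and C5AR1 carry an asterisk on every day at both locations, and the largest values against day 0 are those of C3 in the center on days 11 (5.12) and 13 (5.00).

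C1R encodes the protease that is switched on when C1 binds its target and that in turn activates C1s. Its row (ENSSSCG00025034812) spans contig LUXX01018167.1 from 936945 to 989247 on the minus strand, 52303 bases, and C1R and C1S are direct neighbours in the RefSeq annotation of another pig assembly (Sscrofa11.1). Whether reads of C1S were counted in this row was not tested. Levels ranged from 7.22 to 7.97 in day 0 skin (median 7.60), from 9.27 to 9.80 in the center of day 1 (median 9.50) and from 6.63 to 8.42 at its edge (median 7.56). The center samples of day 1 thus stood above every edge and every day 0 sample, while edge and day 0 overlapped.

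In the center C1R stayed on a plateau. The means of its 9 highest states, all of them centers between days 1 and 11, lay between 9.20 and 9.50 and differed by less than 1 SD of the samples within a state (median 0.44). C1R was higher than in day 0 skin in the center from day 1 (1.76 ± 0.26, adjusted p = 3.59e-09) to day 16 (1.54 ± 0.30, adjusted p = 6.72e-06). At the edge it was higher on 9 days, of which day 9 did not pass with the animal as a block (adjusted p = 0.0589). In the center, on days 19 (0.29 ± 0.31) and 21 (0.31 ± 0.31) it did not pass the test.

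SERPING1 encodes the C1 inhibitor, a serpin that also restrains kallikrein and factor XII. Its row (ENSSSCG00025072730) lies on contig LUXX01083192.1 from 263827 to 278400, minus strand. Levels in the center of day 1 ran from 9.64 to 10.23 (median 9.83) against 7.49 to 8.11 in day 0 skin (median 7.67) and 6.23 to 8.28 at the edge of day 1 (median 7.51), again with no overlap between the center and the others. Its center medians were 9.89, 9.45 and 8.62 on days 2, 4 and 7, then 8.87, 8.89 and 8.73 on days 9, 11 and 13, and 8.09 on day 21. The fold change against day 0 was 1.96 ± 0.33 in the center of day 1 (adjusted p = 1.03e-07) and 0.79 ± 0.32 on day 7 (adjusted p = 0.0231). In the center of day 11 it was 1.11 ± 0.32 (adjusted p = 0.00167). At the edge SERPING1 was higher than day 0 on days 3, 4, 5 and 7 only, and its value on day 1 was -0.33 ± 0.31. Days 5 (adjusted p = 0.0827) and 7 (adjusted p = 0.0540) did not pass with the animal as a block, and neither did the center of day 15 (adjusted p = 0.0615).

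C2 supplies the catalytic subunit of the classical and lectin C3 convertase. Its row (ENSSSCG00025070078, contig LUXX01050314.1, 406740 to 446320, minus strand) overlaps the row of CFB by 1047 bases on the same strand, and how reads in the overlap were assigned is not given in the sources used here. Day 0 skin held little C2, from 2.24 to 3.60 (median 3.06), and the center of day 1 held 6.95 to 7.60 (median 7.47). At the edge of day 1 the samples spread from 2.48 to 5.94 (median 4.52), below every center sample of that day. The center median of day 1 was 23.9 times that of day 0 skin in CPM, and the fitted value was 4.30 ± 0.42 (adjusted p = 1.75e-16). On day 21 C2 was still higher than in day 0 skin, by 2.61 ± 0.44 in the center (adjusted p = 5.06e-07) and 1.73 ± 0.44 at the edge (adjusted p = 0.00176).

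CFB encodes factor B, the counterpart of C2 in the alternative pathway. Its row (ENSSSCG00025067695, contig LUXX01050314.1, 399757 to 407786, minus strand) held only 12 to 40 counts in the day 0 samples. Levels went from 0.82 to 1.63 in day 0 skin (median 1.12) to 4.93 to 5.96 in the center of day 1 (median 5.51) and 3.08 to 4.43 at its edge (median 3.27). The 3 groups did not overlap, and the median in the center was 38.0 times that of day 0 skin in CPM (44.5 against 1.17).

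The rise of CFB was transient. Its fold change against day 0 in the center fell from 4.82 ± 0.63 on day 1 (adjusted p = 5.23e-11) to 3.09 ± 0.59 on day 5 and 1.38 ± 0.57 on day 9 (adjusted p = 0.0286). From day 11 the center no longer passed the test (0.81 ± 0.57 on that day), and on day 19 its samples were at 0.00, 0.78 and 0.94. At the edge CFB was higher than day 0 on every day up to day 13 (1.35 ± 0.57, adjusted p = 0.0480). With the animal as a block neither location passed on day 9 (adjusted p = 0.353 at the edge and 0.264 in the center), nor did the edge on day 13 (0.85, adjusted p = 0.363).

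CFD encodes factor D (adipsin), the protease that cleaves factor B and that fat cells are known to secrete. Its row (ENSSSCG00025007659) lies on contig LUXX01004870.1 from 454368 to 456547, minus strand. It was already abundant in day 0 skin, from 7.33 to 8.17 (median 7.81), and its highest median in CPM was only 2.43 times that of day 0, the smallest such ratio of the list. Center samples of day 1 ran from 8.21 to 9.40 (median 8.99) and edge samples from 7.97 to 9.63 (median 8.90), so the locations overlapped throughout. CFD was higher than day 0 at both locations on days 1 and 2 (0.86 to 1.01) and again in the center on days 9, 11 and 13 (0.75, 0.96 and 1.36). It was lower at the edge of day 19 (-1.17 ± 0.42, adjusted p = 0.0237), where the 3 samples held 6.25, 6.46 and 6.50. That lower call and part of the higher ones did not hold in every variation: without replicates 1, 2 and 3 the number of states past the test went from 8 to 5, 5 and 4, none of them lower, and with the animal as a block 5 did, 1 of them lower. The calls lost with this block were day 2 at the edge (adjusted p = 0.11) and in the center (adjusted p = 0.131) and the center of day 9 (adjusted p = 0.18).

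C3 is the protein on which all routes of activation meet. Its named row (ENSSSCG00025070194) spans contig LUXX01101125.1 from 266537 to 306980, minus strand. Its course had 2 phases in the center. From 4.11 to 5.33 in day 0 skin (median 4.61), C3 went to 5.69 to 7.08 in the center of day 1 (median 6.60), back to 4.29 to 6.13 on day 4 (median 4.73), and then up to 8.82 to 10.30 on day 11 (median 9.82). The day 4 center samples overlapped day 0 skin, and every day 11 center sample was above every sample of both.

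Against day 0, C3 in the center was higher on days 1 to 3 (1.72, 2.06 and 1.89), did not pass the test on days 4, 5 and 6 (0.23, 0.61 and 1.03), and was higher again from day 7 on. The center samples of day 7 spread widely, from 4.55 to 8.13 (median 6.41, SD 1.41), and overlapped day 0 skin. The largest fold changes were 5.12 ± 0.58 on day 11 (adjusted p = 1.63e-13) and 5.00 ± 0.57 on day 13 (adjusted p = 3.71e-13). The median on day 11 was 38.2 times that of day 0 in CPM (906 against 23.7). The 2 highest state means, 9.65 on day 11 and 9.49 on day 13, differed by less than their SDs of 0.64 and 0.61. On day 21 the 3 center samples held 7.00, 10.42 and 6.11, 1 of them far above the others, behind a fitted value of 4.47 ± 0.60.

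At the edge C3 was higher than day 0 on all 14 days, between 1.33 ± 0.50 (day 7) and 2.70 ± 0.52 (day 11). Its edge medians stayed between 5.80 and 7.29 on all days. With the animal as a block the edge did not pass on days 6 (adjusted p = 0.0738), 7 (adjusted p = 0.0881), 15 (adjusted p = 0.0824) and 16 (adjusted p = 0.108).

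C7 is a component of the membrane attack complex. Its row (ENSSSCG00025057184, contig LUXX01064322.1, 1047465 to 1110236, plus strand) showed the widest spread of the list, with a median SD within a state of 1.63 against 0.44 to 0.68 for the other 7 genes. Day 0 skin ran from 0.00 (0 counts) to 4.09 (252 counts), and the center of day 5, its highest state, from 3.46 to 6.88 (median 5.97). C7 was higher than day 0 in the center on days 2 to 6 and at the edge on days 3, 6 and 7, and the largest value was 3.40 ± 1.11 on day 5 in the center (adjusted p = 0.00521). Without wounds 4 and 6 of day 3, the edge of that day went from 2.85 ± 1.09 (adjusted p = 0.0246) to 2.63 ± 1.15 (adjusted p = 0.0577). From day 9 no state passed the test, with values of 0.03 to 1.85.

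Much of the spread of C7 lay between animals. In day 0 skin animals 3 and 6 held 16.1 and 14.7 CPM (252 and 245 counts), and animals 1, 2, 4 and 5 between 0 and 1.15 CPM (0 to 22 counts). After wounding, animals 3 and 6 were above the mean of their state in 23 of 24 samples each, by 1.35 and 1.57 on average, and the other 4 animals were on average 0.42 to 0.93 below. Of the variance of C7 within wound states, 50.4% lay between animals, compared with 4.19% (C3) to 18.3% (C1R) for the other 7 genes. Over all 17916 genes tested the median share was 8.44%, and 138 genes (0.77%) had a share as high as that of C7. Which animals were high was seen in the values, and no test was made of it. With the animal as a block in the fit, C7 was higher than day 0 in 13 of 28 states instead of 8, among them the centers of days 1 to 7 and 9 (4.25 ± 1.13 on day 4, adjusted p = 0.000764), and with 1 replicate number left out 2 (replicate 5) to 12 (replicate 3) states passed.

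**Figure D3:**
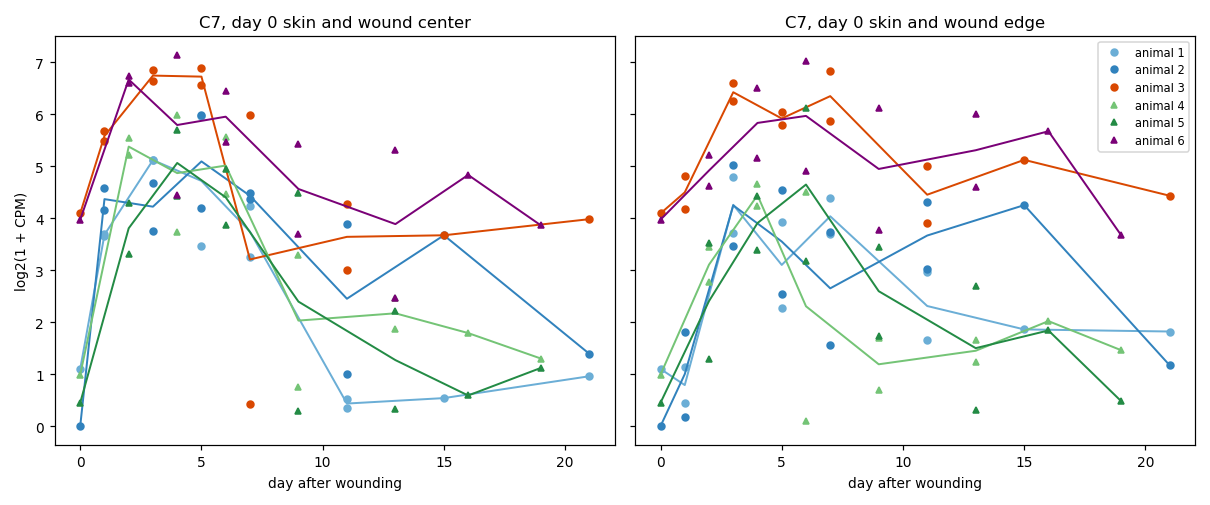
Level of C7 in day 0 skin and in the wound center (left) or the wound edge (right), as log2(1 + CPM), against the day after wounding, with 1 color per animal; lines join the mean of each animal's samples, circles are animals 1 to 3 and triangles animals 4 to 6. Animals 3 and 6 start at 4.09 and 3.97 on day 0 and stay above the other animals on most days, apart from 1 center sample of animal 3 on day 7 at 0.42.

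C5AR1 encodes the receptor for the anaphylatoxin C5a on neutrophils, monocytes and macrophages. Its row (ENSSSCG00025013153) lies on contig LUXX01033958.1 from 498054 to 517927, plus strand. Levels rose from 2.77 to 3.73 in day 0 skin (median 3.44) to 6.52 to 8.21 in the center of day 1 (median 7.73) and 5.11 to 7.58 at its edge (median 6.45). No wound sample of day 1 overlapped day 0 skin, while edge and center overlapped each other. In the center the increase over day 0 stayed between 2.81 and 4.18 on all days, and at the edge it went from 3.38 ± 0.39 on day 1 (adjusted p = 2.67e-12) to 1.62 ± 0.42 on day 21 (adjusted p = 0.00211).

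The edge and the center of the same wounds were then compared within each day. Of the 112 pairs of a gene and a day, 29 were higher in the center and 2 were higher at the edge. Over all genes and days, 11.0% were higher in the center and 12.5% at the edge. C1R and C5AR1 were each higher in the center on 7 days, C3 on 5, CFD and C2 on 3, and SERPING1 and CFB on 2. Both calls at the edge were of C3. C7 passed on 0 days by edgeR, on 1 day at an unadjusted p below 0.05 and on 1 day by DESeq2.

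The days on which the center was higher differed between the genes. On day 1, SERPING1 (-2.29 ± 0.30, edge minus center, adjusted p = 0.000175), C2 (-2.58 ± 0.46, adjusted p = 0.000869), CFB (-1.94 ± 0.26, adjusted p = 0.000221) and C1R (-1.75 ± 0.27, adjusted p = 0.000376) were all higher in the center, 4 of 8 genes where 22.6% of all genes were. For these 4 genes no edge sample of day 1 reached a center sample, which held for 21.2% of all genes in either direction. The same 4 genes were higher in the center on day 2 (17.7% of all genes), with smaller differences of -0.83 to -1.44. SERPING1 and CFB passed the test on no later day, and C2 on day 5 only (-0.81 ± 0.26, adjusted p = 0.0259, with 16.8% of all genes higher in the center).

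C3, CFD and C5AR1 were higher in the center later, on day 9 together with C1R (14.3% of all genes), after C5AR1 and C1R had passed on days 5 and 7 (17.1% of all genes on day 7). On days 11 and 13, 4 of 8 genes were (22.9% and 11.8% of all genes), namely C1R and these 3. C3 ran from 8.82 to 10.30 in the center of day 11 and from 4.96 to 8.51 at its edge (-2.44 ± 0.60, adjusted p = 0.00663), without overlap. CFD ran from 8.11 to 9.24 in the center and from 5.69 to 7.89 at the edge (-1.56 ± 0.31, adjusted p = 0.00169), and C5AR1 from 6.34 to 7.36 and from 4.06 to 5.47 (-1.89 ± 0.23, adjusted p = 0.00011), also without overlap. No overlap was seen for 17.2% of all genes on that day. C3 stayed higher in the center on days 15 (-2.49 ± 0.40, adjusted p = 0.0196) and 16 (-2.69 ± 0.37, adjusted p = 0.0204), when 9.81% and 5.87% of all genes were.

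C3 passed the test on both sides. On day 4 its edge samples held 5.61 to 7.58 (median 6.75) and its center samples 4.29 to 6.13 (median 4.73), and it was higher at the edge (1.86 ± 0.37, adjusted p = 0.00222, with 16.4% of all genes higher at the edge). The same held on day 5, with 5.96 to 7.46 against 4.35 to 6.30 (1.74 ± 0.31, adjusted p = 0.000722, 20.3% of all genes). Both days show overlapping ranges. By day 9 the sign was reversed (-1.83 ± 0.58, adjusted p = 0.0287).

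On days 3, 6, 19 and 21 no member passed the test by edgeR, with 2, 1, 1 and 2 members at an unadjusted p below 0.05 and 0, 1, 0 and 0 below the threshold by DESeq2. Of all genes 0.00% passed on days 3 and 19, 14.2% on day 6 and 0.0684% on day 21. Without wounds 4 and 6 of day 3, CFB was higher in the center on that day (-1.06 ± 0.14, adjusted p = 0.00217). In wound 4 the edge and center samples differed by at most 0.30 for any of the 8 genes, while in wound 1 they differed by 0.99 to 1.23 for C1R, SERPING1, C2, CFB and C5AR1. The 8 genes did not set both wounds apart, since the differences were 0.05 to 1.00 in wound 6 and 0.04 to 1.00 in wound 3, which was kept.

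Both biopsies of a wound share the animal and the wound, and a block for the wound raised the number of calls from 31 to 44, with 39 higher in the center and 5 at the edge (12.6% and 13.6% of all genes and days under this block). CFD then passed on 7 days instead of 3, with the edge higher on days 4 (0.46 ± 0.10, adjusted p = 0.00447) and 5 (0.58 ± 0.10, adjusted p = 0.00179) and the center from day 7 to 13 and on day 16. C2 passed on 5 days instead of 3, adding days 11 and 13. C7 passed on 4 days instead of 0, higher in the center on days 1 (-2.93 ± 0.76, adjusted p = 0.0160), 2 (-1.94 ± 0.28, adjusted p = 0.00136) and 5 (-1.33 ± 0.43, adjusted p = 0.0330) and higher at the edge on day 11 (1.79 ± 0.46, adjusted p = 0.0153). C1R and C5AR1 gained day 4 and SERPING1 day 13.

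Taken over all 14 days, 6 of the 8 genes were higher in the center and none at the edge, where 33.8% of all genes were higher in the center and 32.5% at the edge. C5AR1 showed the largest difference (-1.14 ± 0.11, adjusted p = 4.37e-18), followed by C3 (-0.82 ± 0.15, adjusted p = 5.81e-07), C2 (-0.79 ± 0.11, adjusted p = 3.53e-10) and C1R (-0.74 ± 0.08, adjusted p = 6.72e-16). SERPING1 (-0.50 ± 0.10) and CFD (-0.45 ± 0.10) passed as well, while C7 (-0.02 ± 0.31, adjusted p = 0.984) and CFB (0.10 ± 0.17, adjusted p = 0.636) did not. By wound, C1R and C5AR1 were each higher in the center of 65 of 72 wounds, C2 in 61 and SERPING1 in 53, compared with 38 for C3, whose difference turned with time. The means of the 6 animals all lay on the side of the center for every gene but C7, where 4 did. For CFB these means, taken over wounds in log2(1 + CPM), were only -0.34 to -0.04. Its fitted value of 0.10, which weights each day equally, had the other sign.

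The late wound (days 11 and 13) was compared with the early wound (days 1 and 2) over the same 6 animals. In the center 1 of 8 genes rose and 4 fell (26.0% and 27.4% of all genes). C3 rose by 3.17 ± 0.37 (adjusted p = 9.96e-13), and CFB (-4.10 ± 0.43, adjusted p = 4.32e-15), C7 (-2.01 ± 0.74, adjusted p = 0.0172), C2 (-1.08 ± 0.26, adjusted p = 0.000212) and SERPING1 (-0.89 ± 0.22, adjusted p = 0.00039) fell. Each of these 5 moved the same way in 6 of 6 animals. C1R (0.10 ± 0.18), CFD (0.24 ± 0.23) and C5AR1 (-0.20 ± 0.25) did not pass. The call of C7 was lost without replicate 1 (adjusted p = 0.0548), without replicate 5 (adjusted p = 0.0764) and with 1 value per animal (adjusted p = 0.1).

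At the edge 3 of 8 genes fell and none rose (19.5% of all genes fell): CFB by 1.81 on the log2 scale (SE 0.39, adjusted p = 6.13e-05), CFD by 1.54 (SE 0.23, adjusted p = 1.51e-08) and C5AR1 by 1.10 (SE 0.25, adjusted p = 0.000151). C3 did not pass at the edge (0.47 ± 0.34, adjusted p = 0.293). Its edge values rose in 3 animals and fell in 3, with a mean of -0.03 ± 1.39 (SD, n = 6 animals), against 2.95 ± 0.71 in the center. SERPING1 (0.48 ± 0.22, adjusted p = 0.0736) passed without replicate 5 (0.61, adjusted p = 0.0416) and without the 2 wounds of day 3 (0.53, adjusted p = 0.0404).

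**Figure D4:**
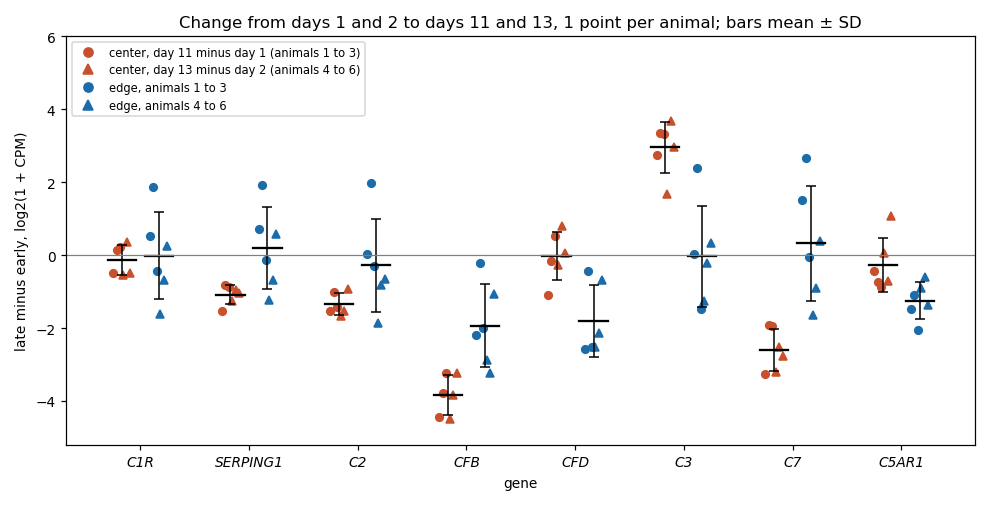
Difference between the late and the early wound in log2(1 + CPM) for each gene, 1 point per animal, in the center (red) and at the edge (blue); circles are day 11 minus day 1 in animals 1 to 3, triangles day 13 minus day 2 in animals 4 to 6, and black bars are the mean ± SD of the 6 animals. In the center all 6 animals lie above 0 for C3 (1.67 to 3.67) and below 0 for CFB (-4.49 to -3.23), while the edge values of C3 lie on both sides of 0.

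Whether time changed the genes differently at the 2 locations was tested as the change of the edge minus center difference. It passed for 7 of 8 genes, 4 with a positive and 3 with a negative change (15.6% and 13.5% of all genes), C1R being the exception (0.17 ± 0.25, adjusted p = 0.674). The difference moved toward the center for C3 (-2.70 ± 0.49, adjusted p = 6.73e-06), CFD (-1.78 ± 0.32, adjusted p = 5.59e-06) and C5AR1 (-0.90 ± 0.35, adjusted p = 0.0409). It moved toward the edge for CFB (2.28 ± 0.55, adjusted p = 0.000585), SERPING1 (1.37 ± 0.32, adjusted p = 0.00033), C2 (1.06 ± 0.37, adjusted p = 0.0204) and C7 (2.70 ± 1.04, adjusted p = 0.0377). The calls of C7, C2 and C5AR1 did not hold in each variation: C7 was lost without any of replicates 1 to 5, C5AR1 without replicates 1, 2, 5 or 6 and C2 without replicates 1, 2 or 3, and both C7 (adjusted p = 0.0553) and C5AR1 (adjusted p = 0.0543) were lost without 7 libraries that lay far from their replicates in an earlier look at these data. These were sample 2 of the day 2 center, 4 of the day 3 center, 6 of the day 3 edge, 6 of the day 5 edge, 5 of the day 6 center, 5 of the day 9 center and 1 of the day 11 center.

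Other genes of the system were taken from a list of 42 symbols, of which 38 had a row and 33 passed the filter. Over all days 21 of the 33 were higher in the center (33.8% of all genes), 3 were higher at the edge (CD55, CFI and C5, with 32.5% of all genes) and 9 did not pass, with a median of -0.43 where the median of the 8 genes above was -0.62. In each role, the gene that differed between the locations on the most days is named, and of FCN1 and MASP1, which both did on 8 days, the one with the larger difference over all days. FCN1, a lectin that starts the lectin pathway and is made by myeloid cells, was higher in the center on 8 days (-1.52 ± 0.15 over all days, adjusted p = 8.85e-17), and CFP, properdin, which stabilizes the alternative convertase, on 4 (-0.68 ± 0.11, adjusted p = 4.92e-08). CLU, clusterin, a fluid phase inhibitor of the membrane attack complex, was higher on 8 days (-1.39 ± 0.09, adjusted p = 7.42e-28). CD46, a membrane cofactor for the cleavage of C3b, was higher on 6 days (-0.43 ± 0.04, adjusted p = 7.54e-21) and CD93, a surface protein of endothelial and myeloid cells first described as a C1q receptor, on 10 (-0.86 ± 0.06, adjusted p = 1.36e-27). Of the terminal components other than C7, none passed between edge and center on any day, with C6 and C8G tested and C8A, C8B and C9 below the filter.

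**Figure D5:**
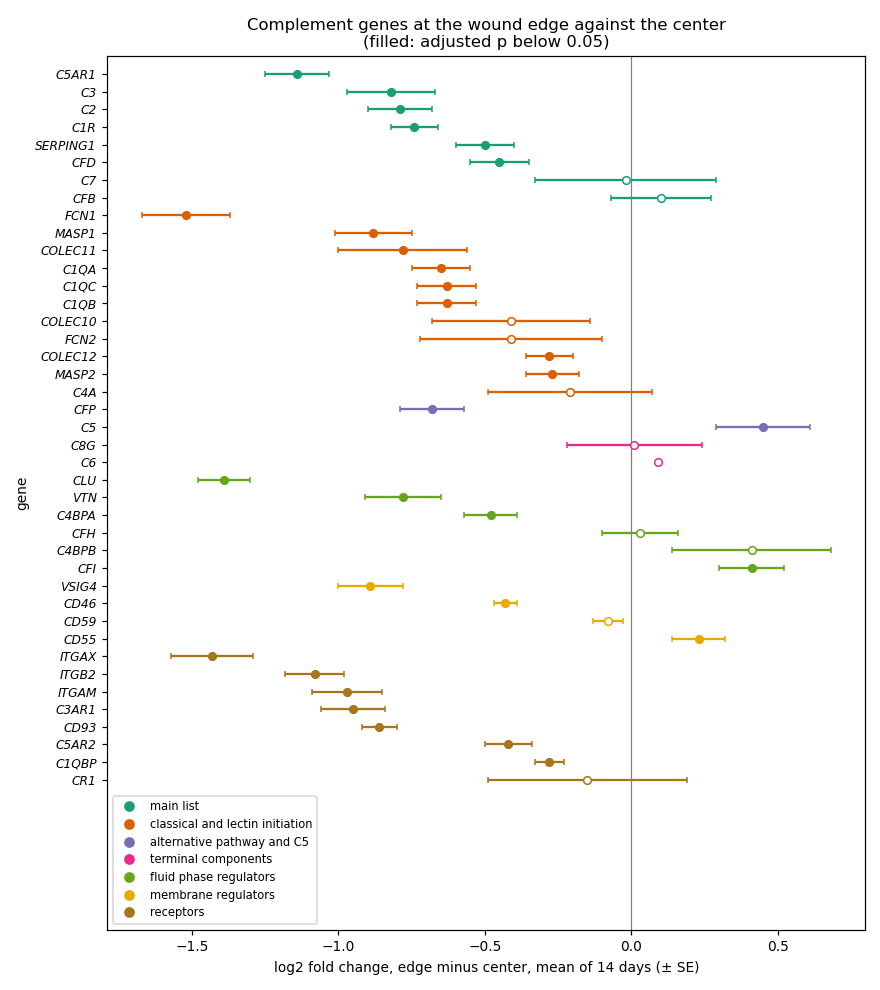
Log2 fold change between the wound edge and the wound center over all 14 days for the 8 genes (main list) and 33 other complement genes, colored by role, with bars of 1 SE; filled points have an adjusted p below 0.05, and C6 has no bar because its SE could not be estimated. Values left of 0 are higher in the center, from FCN1 (-1.52) to C5 (0.45) at the right.

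The late wound also separated these genes. In the center, 12 of the 33 rose and 16 fell between days 1 and 2 and days 11 and 13 (26.0% and 27.4% of all genes). CLU rose by 3.38 ± 0.23 (adjusted p = 3.96e-26) and CD93 by 0.44 ± 0.13 (adjusted p = 0.00358), while FCN1 (-1.47 ± 0.34, adjusted p = 0.000108), CFP (-1.36 ± 0.26, adjusted p = 4.49e-06) and CD46 (-0.45 ± 0.09, adjusted p = 3.29e-06) fell. MASP1, which encodes proteases of the lectin pathway and was higher in the center on 6 days and at the edge on 2, rose by 6.63 ± 0.38 (adjusted p = 1.8e-31). Its rise is given because the value was seen to be large.

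The genes whose state means were most like those of each complement gene were looked up by Pearson's r over the 29 states, among 15832 named genes. OSCAR (0.984), FCER1G (0.983) and IL10 (0.981) came closest to C5AR1, and ACKR4 (0.979), USP10 (0.956) and NUP205 (0.955) to CFB. For C1R these were ITIH4 (0.961), PTPN18 (0.943) and COL5A3 (0.942), for SERPING1 AOC3 (0.951), DOC2B (0.946) and MFNG (0.937), and for C2 IFI203 (0.947), BANK1 (0.940) and SH2B3 (0.936). For C7, FCN2 (0.952) and NNAT (0.942) were among the closest. CFD was most like ARHGAP25 (0.895), ATP6V1H (0.880) and UNC13D (0.876), and C3 like ADAM28 (0.869), JAML (0.854) and SLAMF8 (0.845). Within the list, SERPING1 and C2 had the highest r (0.92) and C3 and C7 the lowest (-0.47). States share animals, and these values describe the data without a test.

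Markers of cell types were compared in the same way. Over all days, 33.8% of all genes were higher in the center and 32.5% at the edge. Of the markers tested, 9 of 9 macrophage genes, 8 of 8 endothelial genes, 7 of 7 T and NK cell genes and 8 of 10 fibroblast genes were higher in the center. So were 4 of 9 skeletal muscle genes and 2 of 8 adipocyte genes. At the edge, 9 of 9 keratinocyte genes and 1 of 10 fibroblast genes were higher. Of 10 neutrophil genes, 5 were higher at the edge and 4 in the center. The summed muscle genes were uneven between samples, from 6.73 to 75972 CPM in the center of day 2. On day 11, when C3, CFD and C5AR1 were higher in the center, the summed macrophage genes ranged from 1197 to 2324 CPM there and from 240 to 805 CPM at the edge. All 9 of 9 were higher in the center (22.9% of all genes). The same sums on day 5, when C3 was higher at the edge and C5AR1 in the center, were 1374 to 2224 CPM in the center and 842 to 1120 CPM at the edge. On day 1 the summed level of 8 adipocyte genes was 5766 to 19729 CPM in the center, 58.4 to 1897 CPM at the edge and 169 to 1811 CPM in day 0 skin. All 8 fell in the center toward days 11 and 13 (27.4% of all genes). The summed interferon response genes stood at 1345 to 3785 CPM in the center of day 1, 672 to 1885 CPM at its edge and 221 to 334 CPM in day 0 skin. On day 11 the medians of KRT5, KRT10 and KRT1 were 12.7, 41.9 and 35.5 CPM in the center and 7773, 19397 and 17153 CPM at the edge. KRT5 ranged from 10.2 to 4971 CPM in these center samples. The medians of ADIPOQ, PLIN1 and LEP on that day were 136, 19.2 and 0.134 CPM in the center and 455, 70.4 and 0.997 CPM at the edge. The part of these cell types in the results was not tested.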

How the data were processed

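Poly-A RNA of 150 samples was read from both ends. Reads with adapters, poly-N stretches or low quality had been removed before alignment. The authors deposited raw read counts for each gene, and FPKM values that served here only to compare levels between genes. The aligner, the counting tool and the genome build are not given in the sources used here. Gene length is a deposited column and was not used otherwise. Genes were named by the symbol column, and where that held no symbol by the matched protein.

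The genes and lists were chosen with earlier results of these data known. Of the other complement genes, the one called on the most days in each role is named, and for each gene the 3 most alike, of which 1 is not reported here.

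Counts were tested with edgeR 4.0.16 in R 4.3.3 (TMM, quasi-likelihood test, genes kept by filterByExpr at its count minimum of 10 and total of 15), on each day alone for edge against center and on all samples together for the other comparisons. Benjamini-Hochberg adjusted p below 0.05 was the threshold. The labels give the edge and center sample of each wound. They deviated together from the means of their groups in 64 of 72 wounds (mean r 0.259, above 0.1 in 58). Alternatives were median-of-ratios (RLE) size factors, library size alone, DESeq2 1.42.0, no filter, 1 value per animal, a wound or animal block, a single fit, samples left out, and for levels TMM-normalized CPM, FPKM and a pseudocount of 0.5 instead of 1. Leaving out 2 wounds of day 3 was added after seeing the data. The fits were tested on simulated counts. Python 3.11.15 with pandas 2.3.3 served for levels. No sequences were used here.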

Additional observations from a re-analysis of the deposited data

Results flagged for a closer look

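In 5 of the 168 groups of 6 samples, 1 sample stood apart by Dixon's ratio, which chance alone does in about 1 group in 20. SERPING1 was low in sample 6 of the day 7 center, at 7.78 on the log2(1 + CPM) scale with the others at 8.57 to 8.69. C2 was low in sample 3 of the day 9 center, at 3.98 (others 5.68 to 6.09), and CFB in sample 2 of the day 6 edge, at 0.88 (others 3.05 to 3.56). C3 was high in sample 4 of the day 3 edge, at 8.09 (others 6.23 to 6.56), the wound whose edge and center libraries are the closest pair, and in sample 2 of the day 6 center, at 6.73 (others 5.21 to 5.77).

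The change from days 1 and 2 to days 11 and 13 differed between edge and center by edgeR's test of the difference for 7 genes. The difference, edge minus center on the log2 scale, was -2.70 for C3, -1.78 for CFD, -0.90 for C5AR1, 2.28 for CFB, 1.37 for SERPING1, 1.06 for C2 and 2.70 for C7. It had the same sign in 6 of 6 animals for C3, CFD, CFB, SERPING1 and C7, and in 5 of 6 for C2 and C5AR1.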

How the results depend on the processing

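Of 85 counts of genes below the threshold under an alternative, 83 stayed within 1.5 times the value reported. Both exceptions were the change of the edge minus center difference, with 4 genes instead of 7 without replicate 1 and without replicate 2, and 4 to 6 over the replicates left out in turn. The number of pairs between edge and center within a day ranged from 27 to 44 (24 to 30 with a replicate left out), and against day 0 from 142 to 159 (134 to 148). Over all days it was 6 throughout. Late against early it was 4 to 5 in the center and 3 to 4 at the edge. The wound block gave 44 pairs within days and 6 and 7 genes in the comparisons over all days and of the change, and the animal block 142 against day 0, and 5 and 3 genes late against early in center and edge. Apart from the calls given with the results, the blocks moved no count by over 1.5 times.

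Of 448 log2 fold changes of single genes under an alternative, 415 kept their direction and their side of the threshold, 20 were no longer past it, 2 newly passed it and 11 turned direction, all of them far from the threshold. CFB over all days was -0.05 without replicate 1 (-0.05 to 0.21 over the replicates left out), and C7 0.05 without replicate 2 and 0.02 without replicate 4 (-0.12 to 0.05). C1R in the center, late against early, was -0.13 with library size alone, a scaling that moved the median of all genes by -0.27 to 0.17 (RLE by -0.08 to 0.04). C2 at the edge, late against early, was 0.01 with RLE and with DESeq2, 0.03 without the 2 wounds of day 3, and 0.11, 0.02, 0.14 and 0.02 without replicates 1, 2, 5 and 6 (-0.18 to 0.14). The causes were not tested. With 3 samples per location on the last 4 days, differences are poorly resolved. The standard errors come from the fits and include the spread between samples.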
